A study of Mus musculus with 12 samples.

Results

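The regenerating islet-derived (Reg) lectins of the mouse were followed through 12 libraries of sorted crypt cells. The 5 genes Reg1, Reg3a, Reg3b, Reg3g and Reg4 were taken by symbol from the 55414 genes of the count table, and all 5 passed the filter on low counts.

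Reg proteins are small secreted C-type lectins. Reg3g kills Gram-positive bacteria by binding their peptidoglycan, Reg3b acts mainly on Gram-negative bacteria, and both are induced in the gut epithelium by microbial signals through MyD88 and by IL-22 through STAT3. Reg4 is a divergent family member known from Paneth and other secretory cells. Reg1 was first described in regenerating islets and in pancreatic juice, and Extl3, an exostosin-like glycosyltransferase, has been proposed as a receptor for Reg proteins.

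Crypts of the small intestine of C57BL/6J mice were dissociated and sorted into Paneth (PC) and non-Paneth (nonPC) cells, and total RNA of each fraction was sequenced in bulk. The mice were naive and 8 to 12 weeks old. They were either WT for the glucocorticoid receptor gene Nr3c1 or GRKO, which the labels call GRvillinKO, a deletion driven by the villin promoter and therefore in the intestinal epithelium and not in Paneth cells alone. Each of the 4 groups had 3 libraries. The Paneth gate took cells without CD31, CD45 or TER119 that carried CD24 and cKIT and had medium to high side scatter. For non-Paneth cells neither the labels nor the methods name a gate, and for WT mice they name no further allele. The labels do not say that libraries of a group came from separate mice, so p-values measure the spread between these libraries.

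The libraries held 11126297 to 15910292 counts. In Paneth cells Nr3c1 was read at 33.0 to 41.1 CPM (counts scaled to the library total) in WT and 4.73 to 12.1 CPM in GRKO mice. In non-Paneth cells it was read at 135 to 160 and at 19.6 to 36.2 CPM, so that all GRKO libraries lay below the WT libraries of their fraction. The 7 Paneth markers (Lyz1, Mmp7, Defa24, Defa30, Itln1, Ang4 and Mptx2) summed to 356800 to 445100 CPM in Paneth and 441 to 1690 CPM in non-Paneth libraries. WT Paneth replicate 2 stood apart from the other Paneth libraries. Its 8 enterocyte markers summed to 1334 CPM, against 408 and 382 CPM in the other WT Paneth libraries and 298 to 403 CPM in GRKO Paneth libraries. Xist, the RNA of the inactive X chromosome, was read at 126.5 and 256.6 CPM in the Paneth and non-Paneth libraries of WT number 2 and at no more than 0.52 CPM in the other 10. By Xist, WT number 2 held female cells, and no other library, WT or GRKO, did so at that level. WT number 2 thus did not come from the mouse of WT number 1 or 3. Whether sex had a part in differences between genotypes, or with and without WT number 2, was not tested. Results that rest on WT number 2 are therefore given with and without it.

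Of the 7 Reg genes of the mouse, 6 lie on chromosome 6 within 98.2 kb (GRCm39, chr6:78347640-78445859). In order along it they are Reg3b (plus strand), Reg3d, Reg3a, Reg2, Reg1 and Reg3g (minus strand). Reg4 lies alone at chr3:98129468-98144066. Each 100-base stretch of the exons of the 5 genes occurred once in the genome, and none of their exons overlapped another gene, so their reads could be told apart. For Reg2 only 53.9% of such stretches were unique. Among coding sequences of the canonical transcripts, Reg3b and Reg3g were 76.0% identical, Reg3a was 73.9% identical to Reg3b and 73.2% to Reg3g, Reg1 shared 56.6 to 60.0% with the Reg3 members, and Reg4 shared 50.6 to 54.8% with the other 4.

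The start regions are shown because the 5 genes fell into different patterns although 4 of them are neighbours. The sequences are RefSeq promoters (table build GRCm38.p6), placed on GRCm39 by exact match, each with 90 bases before and 30 bases from the RefSeq start, and capitals mark the letters TATAAA, the core of a TATA box.
Reg4 (chr3:98129382-98129501, plus strand): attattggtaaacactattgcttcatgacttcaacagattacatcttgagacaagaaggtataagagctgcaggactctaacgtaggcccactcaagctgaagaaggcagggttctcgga
Reg3g (chr6:78445828-78445947, minus strand): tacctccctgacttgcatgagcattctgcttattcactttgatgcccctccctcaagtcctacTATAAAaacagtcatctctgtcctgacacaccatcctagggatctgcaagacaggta
Reg3b (chr6:78347778-78347897, plus strand): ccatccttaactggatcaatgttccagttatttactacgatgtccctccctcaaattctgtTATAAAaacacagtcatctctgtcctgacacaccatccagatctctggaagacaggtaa
Reg1 (chr6:78402876-78402995, plus strand): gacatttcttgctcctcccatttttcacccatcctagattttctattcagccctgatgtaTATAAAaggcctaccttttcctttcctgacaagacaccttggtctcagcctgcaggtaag
Reg3a (chr6:78357602-78357721, plus strand): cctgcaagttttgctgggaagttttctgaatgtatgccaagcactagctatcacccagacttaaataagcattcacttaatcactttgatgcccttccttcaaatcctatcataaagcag
Reg1, Reg3b and Reg3g held TATAAA 30, 29 and 27 bases before the start, and Reg3a and Reg4 held it nowhere in their 300 bases. On either strand, 13.6% of 32544 RefSeq promoters of that length held it. Reg3b and Reg3g also shared the 29-base run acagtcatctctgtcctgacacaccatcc from 20 bases before the start. The longest run shared by any other pair was 14 bases, between Reg3a and Reg3g. It began 10 bases before the start in Reg3a and 57 bases before it in Reg3g, so their windows do not line up. The STAT motif TTCNNNGAA was found once, in Reg3b, 129 bases before the start, and in 8.33% of all promoters. TGTTCT, the letters of a single glucocorticoid receptor site arm, occurred once in Reg3a, 155 bases before the start, and once in Reg3b, 135 bases before the start and next to the STAT motif without overlap, as it did in 18.9% of all promoters. Both strands were searched for the exact letters, so near matches were not counted, and positions depend on the RefSeq start. These are matches of letters in a short window and say nothing of binding.

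Reg4 was higher in the Paneth than in the non-Paneth fraction of both genotypes. It was read at 1518, 1964 and 2138 CPM in WT Paneth libraries and at 74.6, 62.9 and 28.6 CPM in WT non-Paneth libraries, and at 3866, 3827 and 2533 CPM in GRKO Paneth and 67.1, 138 and 82.9 CPM in GRKO non-Paneth libraries. Every Paneth library lay more than 10 times above every non-Paneth library. With edgeR's quasi-likelihood test over all 13057 tested genes, the Paneth over non-Paneth log2 fold change of Reg4 was 5.80 ± 0.457 (SE; adjusted p = 1.06e-06) in WT and 6.15 ± 0.463 (adjusted p = 1.76e-06) in GRKO mice. By mean CPM it ranked 21st of 19261 genes with a count in WT Paneth cells and 3784th of 20404 in WT non-Paneth cells. Markers of tuft cells, a rare chemosensory type, moved in the same direction. The 4 of them summed to 98.8 to 241 CPM in WT Paneth and 2.56 to 7.998 CPM in WT non-Paneth libraries, and to 239 to 647 CPM in GRKO Paneth and 69.2 to 281 CPM in GRKO non-Paneth libraries. Of the 3 that were tested, all 3 were higher in Paneth cells, by 5.28 to 6.02 in WT and by 2.13 to 2.34 on the log2 scale in GRKO mice. The part of tuft cells in the Reg4 difference was not tested. In these bulk libraries fewer cells that express a gene and less RNA per cell cannot be told apart.

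**Figure D1:**
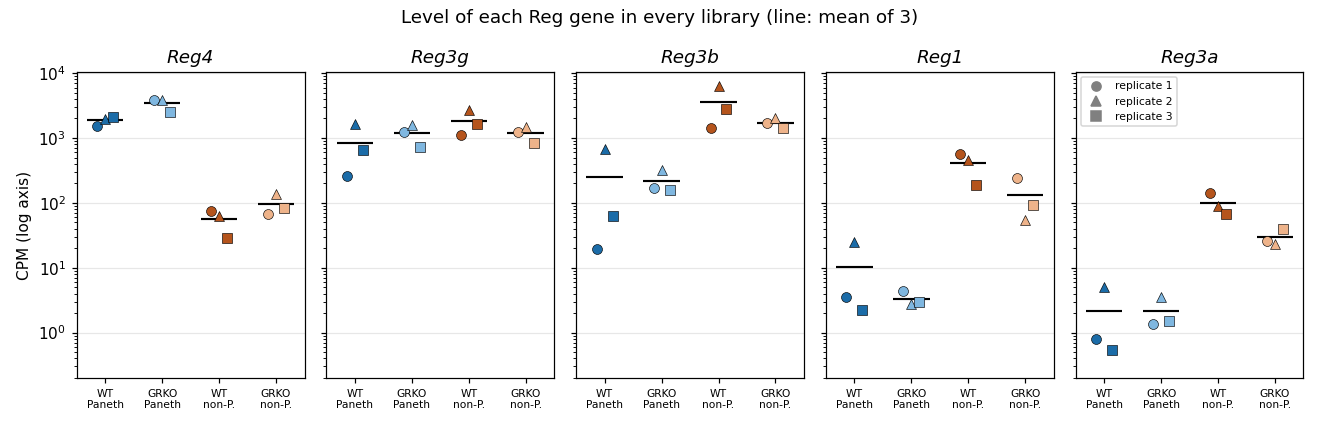
Level of each Reg gene in CPM (log axis) in each of the 12 libraries, by group (non-P., non-Paneth), with the replicate number as the marker shape and a line at the mean of 3. Reg4 sits high in both Paneth groups and Reg1 and Reg3a in both non-Paneth groups, Reg3g overlaps throughout, and WT Paneth replicate 2 is the highest of its group for all but Reg4.

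Reg3g, the Gram-positive-directed lectin, was abundant in both fractions. It was read at 256.1, 1644 and 645 CPM in WT Paneth libraries and at 1105, 2707 and 1644 CPM in WT non-Paneth libraries, and the groups overlapped. In GRKO mice the values were 1259, 1590 and 739 CPM in Paneth and 1221, 1458 and 851 CPM in non-Paneth libraries, which also overlapped. The log2 fold change of Paneth over non-Paneth cells was -0.30 ± 0.687 in WT (adjusted p = 0.746, 95% interval -1.87 to 1.26) and 1.01 ± 0.693 in GRKO mice (adjusted p = 0.289, interval -0.57 to 2.59), and neither passed the threshold. These values are on the TMM scale, which moved fold changes of Paneth over non-Paneth cells up by 0.70 in WT and by 0.98 in GRKO mice relative to scaling by library totals. By totals the difference of Reg3g was -1.10 in WT and 0.02 in GRKO mice. With libraries of the same genotype and number as a block, the WT difference was -0.69 ± 0.270 (edgeR adjusted p = 0.0568), also short of the threshold. That fit blocked GRKO libraries by number as well, so its shared estimate of the spread rests partly on pairs that were not shown. Same-numbered WT Paneth libraries held 23.2, 60.7 and 39.2% of the non-Paneth CPM, and on the TMM scale the ratios were 0.342, 1.11 and 0.629. Over single libraries left out the WT difference was -1.38 to 0.19. Of 20 alternatives Reg3g passed in 0 in WT and in 3 in GRKO mice.

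Reg3b, its close paralog, was the most abundant of the 5 in non-Paneth cells. The libraries held 1423, 6386 and 2792 CPM in WT non-Paneth and 1685, 2049 and 1402 CPM in GRKO non-Paneth cells. Paneth libraries held 19.3, 672 and 62.3 CPM in WT and 172, 318 and 157 CPM in GRKO mice. Every Paneth library lay below every non-Paneth library, but the spread within WT Paneth cells was 34.8-fold, the widest of the 5 genes. The log2 fold change was -2.96 ± 1.24 in WT (adjusted p = 0.0763) and -2.03 ± 1.19 in GRKO mice (adjusted p = 0.218), short of the threshold in both. DESeq2 called Reg3b in WT (-2.98, adjusted p = 0.00957), and scaling by library totals did so in WT (-3.82, adjusted p = 0.0227) and in GRKO mice (-2.99, adjusted p = 0.0436). In WT mice, where libraries of the same number were treated as pairs by their correlation and not by a label, the fit with the pair as a block gave -4.30 ± 0.787 (edgeR adjusted p = 0.0102). GRKO libraries were blocked by number in the same fit and entered its estimate of the spread, though their pairing was not shown. Without WT number 2 the differences were -5.03 (adjusted p = 0.000581) in WT and -2.01 (adjusted p = 0.0132) in GRKO mice, both past the threshold, and without WT Paneth replicate 2 alone they were -5.81 (adjusted p = 0.00103) and -2.03 (adjusted p = 0.0359). WT libraries enter the GRKO comparison through the shared estimate of the spread. Of 20 alternatives Reg3b passed in 6 in WT and in 5 in GRKO mice, with adjusted p of up to 0.212 and 0.382. The edgeR fit on only the groups compared gave -3.02 in WT (adjusted p = 0.179). Leaving out WT non-Paneth replicate 2 gave -2.14 (adjusted p = 0.212).

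The balance of the 2 paralogs can be read within a library, free of any scaling between libraries. In Paneth libraries the counts of Reg3b per count of Reg3g were 0.0753, 0.408 and 0.0966 for WT and 0.137, 0.200 and 0.213 for GRKO mice. In non-Paneth libraries they were 1.29, 2.36 and 1.70 for WT and 1.38, 1.41 and 1.65 for GRKO mice. Thus Reg3g counts exceeded Reg3b counts in each of the 6 Paneth libraries and Reg3b counts exceeded Reg3g counts in each of the 6 non-Paneth libraries. The ratio was chosen after its values were seen and is given as a description with no test. WT Paneth replicate 2, with the most enterocyte marker RNA of the Paneth libraries, also had the highest ratio of them. WT non-Paneth replicate 2 likewise had the highest ratio of the non-Paneth libraries, 2.36. Its enterocyte markers, however, summed to the least of the WT non-Paneth libraries, 27510 CPM against 31660 and 29820 CPM. The part of other cells in this ratio was not tested.

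**Figure D2:**
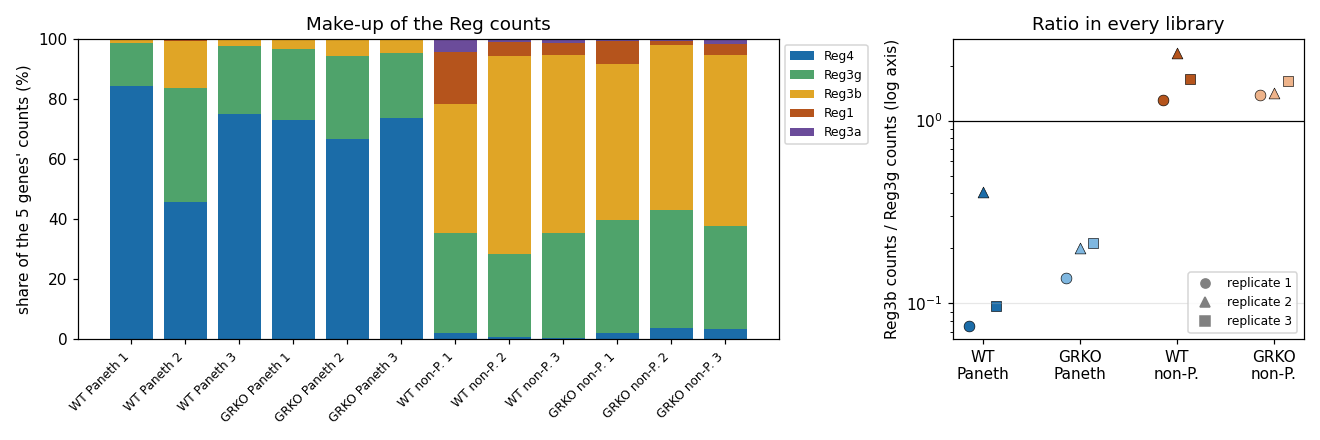
Left, share of each gene in the summed counts of the 5 Reg genes (%) in each library (non-P., non-Paneth); right, Reg3b counts divided by Reg3g counts (log axis, line at 1). Reg4 makes up 45.6 to 84.4% of Paneth and at most 3.71% of non-Paneth Reg counts, and the ratio is below 0.41 in Paneth and above 1.2 in non-Paneth libraries.

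Reg1 and Reg3a were genes of the non-Paneth fraction. Reg1 was read at 572, 457 and 186 CPM in WT non-Paneth and at 244, 54.6 and 93.3 CPM in GRKO non-Paneth libraries, against 3.53, 24.5 and 2.25 CPM in WT Paneth and 4.32, 2.72 and 2.98 CPM in GRKO Paneth libraries. Reg3a was read at 141, 90.2 and 67.4 CPM in WT non-Paneth and 26.0, 23.2 and 39.0 CPM in GRKO non-Paneth libraries, against 0.784, 5.11 and 0.539 CPM in WT Paneth and 1.36, 3.51 and 1.49 CPM in GRKO Paneth libraries. Neither gene overlapped between the fractions of a genotype. Reg1 was lower in Paneth cells by log2 fold changes of -4.52 ± 1.05 in WT (adjusted p = 0.00648) and -4.31 ± 1.10 in GRKO mice (adjusted p = 0.0142). Reg3a was lower by -4.77 ± 0.715 in WT (adjusted p = 0.000474) and -2.82 ± 0.700 in GRKO mice (adjusted p = 0.0115). Without WT number 2 the WT differences were -6.39 for Reg1 (adjusted p = 0.00305) and -6.64 for Reg3a (adjusted p = 9.28e-06). In GRKO mice Reg1 lost its call without GRKO Paneth replicate 2 (adjusted p = 0.0541) or replicate 3 (adjusted p = 0.0528), with differences of -4.13 and -4.21.

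Markers of enterocytes, the absorptive cells, were set beside these low Paneth levels. In WT mice the 8 enterocyte markers of a Paneth library summed to 1.29, 4.85 and 1.28% of those of the non-Paneth library of the same number. For Reg1 the percentage was 0.616, 5.36 and 1.21, for Reg3a 0.554, 5.67 and 0.800, and for Reg3b 1.35, 10.5 and 2.23. For these 3 genes, as for the markers and also for Reg3g, replicate 2 had the highest percentage. In GRKO mice, where the numbers were not shown to pair libraries, the percentages were 3.72, 6.08 and 4.22 for the markers, 1.77, 4.98 and 3.19 for Reg1, 5.22, 15.1 and 3.81 for Reg3a and 10.2, 15.5 and 11.2 for Reg3b. Reg3g stood far above the markers, at 23.2, 60.7 and 39.2% in WT and 103, 109 and 86.8% in GRKO mice. The part of enterocyte RNA in the Paneth libraries was not tested. Reg1 is also abundant in pancreatic acinar cells, and 10 acinar markers were counted beside it. In WT Paneth libraries 9 of the 10 had no count, and Clps alone made up the list's 1562 to 1969 CPM. In WT non-Paneth libraries 5 of the 10 had no count and the list summed to 3.84 to 13.8 CPM. The part of acinar RNA was not tested.

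**Figure D3:**
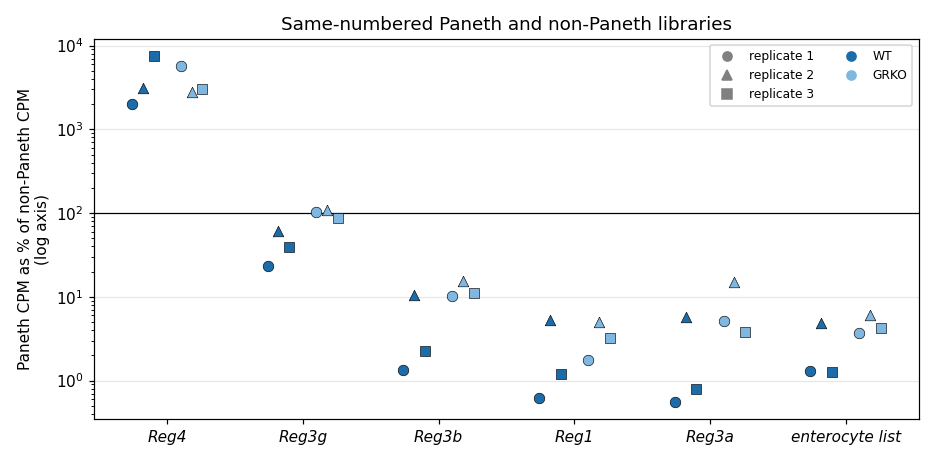
CPM of a Paneth library as a percentage of the CPM of the non-Paneth library of the same number (log axis, line at 100%) for the 5 Reg genes and for the summed enterocyte markers, in WT (dark) and GRKO (light) mice. The enterocyte markers lie between 1.28 and 6.08%, Reg1 and Reg3a between 0.554 and 15.1%, Reg3g between 23.2 and 109% and Reg4 at 2030% or more.

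In sum over the members, 3 of 5 passed the threshold between fractions in each genotype, with Reg4 higher and Reg1 and Reg3a lower in Paneth cells. Of all 13057 genes 50.7% were called in WT (24.0% higher, 26.7% lower) and 39.2% in GRKO mice (17.9% higher, 21.2% lower). Without WT number 2 it was 4 of 5 in both genotypes, with Reg3b added, which passed in 6 of 20 alternatives in WT and in 5 of 20 in GRKO mice. Of all genes, the fit without WT number 2 called 5213 in WT and 4791 in GRKO mice, against 6624 and 5116 with every library.

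Of the remaining family members, Reg2 had 1 count in all 12 libraries. Reg3d had 14 counts in WT and 5 in GRKO non-Paneth libraries and none in Paneth libraries. A count of 0 over the 3 libraries of a group allows up to 3 counts, or 0.0828 CPM in WT Paneth and 0.0751 CPM in GRKO Paneth cells, for counting error only. Both genes failed the filter and were not tested.

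Levels of different genes were compared per kb of merged exon length. In WT Paneth cells the order was Reg4 with 1585 ± 270 CPM per kb (SD, n = 3), Reg3g with 394 ± 333, Reg3b with 175 ± 254, Reg1 with 9.33 ± 11.6 and Reg3a with 1.91 ± 2.28. Reg4 did not overlap Reg3g, while every later pair of neighbours overlapped. In GRKO Paneth cells the order was the same, at 2884 ± 642, 555 ± 199, 150 ± 61.9, 3.09 ± 0.792 and 1.88 ± 1.07 CPM per kb, and the overlap was confined to Reg1 and Reg3a. In WT non-Paneth cells Reg3b came first with 2463 ± 1786 CPM per kb, followed by Reg3g with 845 ± 379, Reg1 with 374 ± 183, Reg3a with 88.5 ± 33.7 and Reg4 with 46.9 ± 20.2, and Reg1 against Reg3a was the pair of neighbours without overlap. In GRKO non-Paneth cells Reg3b had 1193 ± 226, Reg3g 547 ± 142, Reg1 121 ± 92.5, Reg4 81.2 ± 31.5 and Reg3a 26.1 ± 7.504 CPM per kb, with overlap of Reg1 and Reg4 only. The merged length of Reg3g, 2153 bases, includes a retained intron, whereas its canonical transcript has 778 bases. Per kb of canonical transcript, a choice made after seeing the data, the 4 orders were the same and Reg3g was at 1091 ± 921 CPM per kb in WT Paneth cells, where it overlapped Reg4 at 1824 ± 311. In GRKO non-Paneth cells Reg3b and Reg3g then overlapped as well, at 2170 ± 411 and 1512 ± 393 CPM per kb.

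Deletion of the glucocorticoid receptor gene was compared next, first in Paneth cells. None of the 5 genes passed the threshold, against 3.22% of all genes (1.70% higher, 1.52% lower), and at an unadjusted p under 0.05 there was 1, Reg4. Its GRKO libraries, at 2533 to 3866 CPM, lay above its WT libraries, at 1518 to 2138 CPM, with a log2 fold change of 0.85 ± 0.373 (edgeR adjusted p = 0.175). The summed tuft markers, at 239 to 647 CPM in GRKO and 98.8 to 241 CPM in WT Paneth libraries, overlapped between genotypes, none of the 3 tested passed the threshold, and their part was not tested. DESeq2 called none of the 5 either. For Reg3g the difference was 0.39 ± 0.687, for Reg3b -0.41 ± 1.15, for Reg3a -0.10 ± 0.864 and for Reg1 -1.71 ± 1.12, with overlapping libraries and adjusted p of 0.752, 0.855, 0.957 and 0.361. Without WT number 2 the signs of Reg3b (2.44), Reg3a (1.73) and Reg1 (0.29) turned and that of Reg3g (1.47) was kept, with adjusted p of 0.0844, 0.162, 0.893 and 0.127. Without 1 GRKO Paneth library, replicate 1 or 3, Reg3a was at 0.06 and 0.13, and without WT Paneth replicate 1 Reg3g was at -0.07.

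In non-Paneth cells Reg3a fell in GRKO mice by 2.04 on the log2 scale (SE 0.566, edgeR adjusted p = 0.0207), with every GRKO library, at 23.2 to 39.0 CPM, below every WT library, at 67.4 to 141 CPM. It was the 1 of 5 called, against 37.3% of all genes (17.5% higher, 19.8% lower). The call was lost without GRKO non-Paneth replicate 1 (-2.02, adjusted p = 0.067), GRKO non-Paneth replicate 2 (-1.95, adjusted p = 0.0727) or WT non-Paneth replicate 1 (-1.77, adjusted p = 0.0623), and it held without WT number 2 (-2.10, adjusted p = 0.00184). The log2 differences of the others were -1.91 ± 0.907 for Reg1, -1.34 ± 1.17 for Reg3b, -0.92 ± 0.692 for Reg3g and 0.50 ± 0.376 for Reg4, with adjusted p of 0.134, 0.406, 0.333 and 0.324, and their libraries overlapped. Without WT Paneth replicate 2, which enters this comparison through the shared estimate of the spread, Reg1 was called as well (-1.91, adjusted p = 0.0461).

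Marker RNA of other cell types in the non-Paneth fraction also differed between genotypes. The 8 enterocyte markers summed to 27510 to 31660 CPM in WT and 6630 to 8569 CPM in GRKO non-Paneth libraries. Their mean was 3.83-fold higher in WT cells, beside 3.39-fold for Reg3a, 3.10-fold for Reg1, 2.06-fold for Reg3b and 1.55-fold for Reg3g, while the WT mean of Reg4 was 0.577 times the GRKO mean. Of the 8 markers, 3 fell and 5 did not pass the threshold. As a percentage of the summed enterocyte markers, Reg3a was 0.447, 0.328 and 0.226 in WT and 0.325, 0.350 and 0.456 in GRKO non-Paneth libraries, so that on this scale the genotypes overlapped. The 4 tuft markers summed to 2.56 to 7.998 CPM in WT and 69.2 to 281 CPM in GRKO non-Paneth libraries, and the 4 proliferation markers to 723 to 832 and 1515 to 1598 CPM. The part of these markers' cells in the Reg3a difference was not tested.

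**Figure D4:**
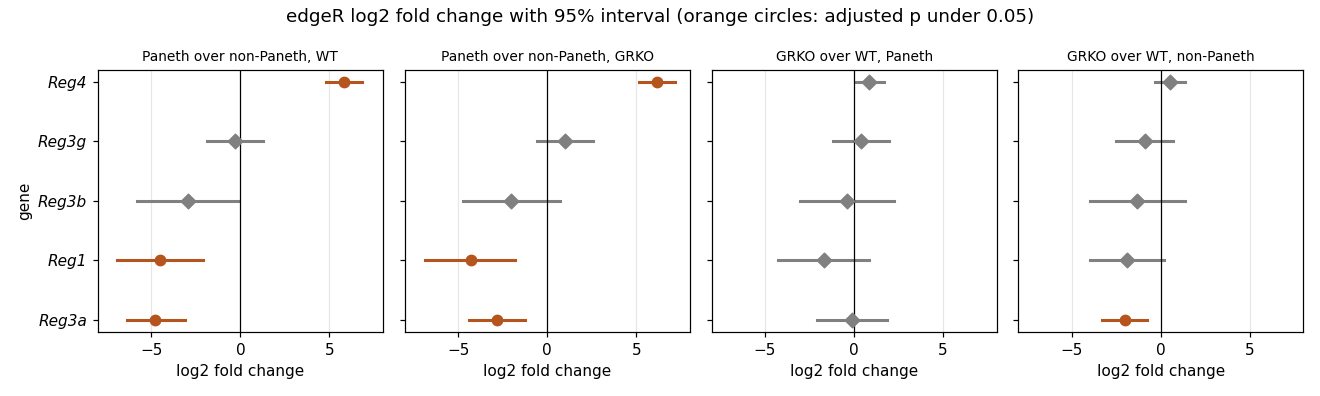
Log2 fold change of each Reg gene from edgeR with its 95% interval in the 4 comparisons; orange circles passed an adjusted p of 0.05 and grey diamonds did not. Between fractions 3 genes passed in each genotype, between genotypes Reg3a in non-Paneth cells alone.

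Whether the genotype difference itself differed between fractions was tested as an interaction, the GRKO over WT difference in Paneth cells minus that in non-Paneth cells. None of the 5 genes passed in edgeR's test, against 18.7% of all genes (11.5% positive, 7.27% negative), none had an unadjusted p under 0.05, and DESeq2 called 0. The estimates were 1.95 ± 1.03 for Reg3a (adjusted p = 0.224), 1.31 ± 0.975 for Reg3g (0.393), 0.94 ± 1.63 for Reg3b (0.738), 0.35 ± 0.527 for Reg4 (0.692) and 0.20 ± 1.44 for Reg1 (0.945). Without WT number 2, Reg3a at 3.84 (adjusted p = 0.00968) and Reg3b at 3.02 (adjusted p = 0.0391) were past the threshold. Without WT Paneth replicate 2 alone, Reg3a at 3.78 (adjusted p = 0.00552), Reg3b at 3.78 (adjusted p = 0.0321) and Reg3g at 2.39 (adjusted p = 0.0499) were.

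Genes that act upstream of Reg3b and Reg3g were listed beside them. Of 10 genes of IL-22 and STAT3 signalling, 1 was higher and 6 were lower in Paneth than in non-Paneth cells of WT mice, beside 24.0% higher and 26.7% lower of all genes, with a median log2 difference of -0.66 against 0.01 over all genes. The receptor chain Il22ra1 was lower by -1.04 ± 0.262 (adjusted p = 0.0052) and the kinase gene Jak2 by -1.26 ± 0.158 (adjusted p = 8.65e-06), while the IL-6 receptor Il6ra was higher by 2.71 ± 0.530 (adjusted p = 0.00059). In non-Paneth cells 6 of the 10 fell in GRKO mice and none rose, beside 19.8% and 17.5% of all genes (median -0.60 against 0.02). Il22ra1 went from 63.0 to 72.8 CPM in WT to 30.2 to 37.8 CPM in GRKO libraries (log2 fold change -1.32 ± 0.258, adjusted p = 0.00185), and Jak2 from 98.2 to 114 to 63.4 to 76.3 CPM (-0.91 ± 0.154, adjusted p = 0.000411). Il10rb, the second chain of the IL-22 receptor, fell by 0.71 and Socs3, a feedback inhibitor of STAT3, by 1.57 (adjusted p = 0.00049 and 0.0173). In Paneth cells edgeR called none of the 10 between genotypes, with 5 at an unadjusted p under 0.05 and 1 called by DESeq2.

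In GRKO mice 3 of the 10 were higher in Paneth than in non-Paneth cells and none was lower, beside 17.9% and 21.2% of all genes (median 0.36 against -0.08). They were Il6ra (2.55), Il22ra1 (0.71) and Il10rb (0.55), with edgeR adjusted p of 0.00113, 0.0461 and 0.00253. For Il22ra1 and Il10rb this direction was tied to the scaling: by library totals the differences were -0.25 and -0.42, and in CPM Il22ra1 stood at 20.9 to 37.0 in Paneth and 30.2 to 37.8 in non-Paneth libraries.

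Of 11 tested genes of Toll-like receptor and MyD88 signalling, 2 were higher and 4 lower in Paneth cells of WT mice, near the 24.0% and 26.7% of all genes (median -0.49 against 0.01). The flagellin receptor Tlr5 was read at 2.90 to 4.87 CPM in WT Paneth and at most 0.278 CPM in WT non-Paneth libraries (log2 fold change 5.65 ± 0.721, adjusted p = 1.21e-05). Ticam1, the adaptor of Tlr3, was lower by -1.73 ± 0.149 (adjusted p = 1.75e-07) and Tlr3, a receptor of double-stranded RNA, by -1.05 ± 0.171 (adjusted p = 0.000106). In GRKO mice 2 were higher and 3 lower in Paneth cells, beside 17.9% and 21.2% of all genes, among them Tlr5 (5.05) and Tlr2 (-0.82) with adjusted p of 2.13e-05 and 0.00259. Between genotypes edgeR called none of the 11 in Paneth cells, with 4 at an unadjusted p under 0.05 and 2 called by DESeq2. In non-Paneth cells Irak1 rose by 0.53, and Irak4 fell by 0.47 and Ticam1 fell by 1.03 (adjusted p = 0.00409, 0.0229 and 8.02e-05). Irak1 and Ticam1 passed in all 20 alternatives and Irak4 in 17, where it ranged from -0.55 to -0.18 with adjusted p of up to 0.368. TMM moved differences of this comparison by -0.29 relative to library totals.

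Other known targets of IL-22 and STAT3 were counted in the same way, with 11 of 15 tested. In WT mice 1 was higher and 7 were lower in Paneth cells, beside 24.0% and 26.7% of all genes (median -1.28 against 0.01). Retnlb, a bactericidal resistin-like protein of goblet cells, was the higher one (6.20 ± 2.0, adjusted p = 0.03). Duoxa2, which matures the oxidase Duox2, was among the lower ones (-2.20 ± 0.725, adjusted p = 0.0323), as was the acute-phase gene Saa1 (-4.01 ± 1.44, adjusted p = 0.0424). Of 20 alternatives Saa1 passed in 9, Duoxa2 in 13 and Retnlb in 15, with adjusted p of up to 0.15, 0.114 and 0.151. In GRKO mice 5 were lower and none was higher, beside 21.2% and 17.9% of all genes (median -1.29 against -0.08), among them Pigr, the transporter of IgA, by -0.70 and Lcn2, which binds bacterial siderophores, by -2.0 (adjusted p = 0.00278 and 0.024). Between genotypes edgeR called 1, Nos2, the inducible nitric oxide synthase, which fell by 1.47 (adjusted p = 0.00669) in non-Paneth cells, where DESeq2 called 3 of the 11. In Paneth cells 1 of the 11 had an unadjusted p under 0.05 and DESeq2 called 0. For comparison, 10 of 12 tested crypt antimicrobial genes were higher in WT Paneth cells, Itln1, an intelectin, by 9.12 ± 0.559 (adjusted p = 1.13e-08), and 2 were lower.

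Extl3 was read at 21.4 to 26.8 CPM in WT Paneth and 20.3 to 25.1 CPM in WT non-Paneth libraries, which overlapped. On the TMM scale it was higher in Paneth cells by 0.72 ± 0.175 (adjusted p = 0.00275) in WT and 0.76 ± 0.170 (adjusted p = 0.00233) in GRKO mice, and by library totals the differences were 0.01 and -0.19. In non-Paneth cells it rose in GRKO mice by 0.52 ± 0.171 (adjusted p = 0.0259), from 20.3 to 25.1 CPM to 37.6 to 44.6 CPM.

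The genes whose log2 CPM ran most like that of each member over the 12 libraries were named with Pearson's r, as a description, since the libraries fall into 4 groups that set most of it. Nearest to Reg4 were Wnt3 (0.996), a Wnt ligand made by Paneth cells, Qsox1 (0.994), a sulfhydryl oxidase of the secretory pathway, and Smim33 (0.994). Nearest to Reg1 were the alcohol dehydrogenase Adh6a (0.988), Btnl7-ps (0.978) and the manganese transporter Slc30a10 (0.975). Nearest to Reg3a were Erich4 (0.991), the trypsin inhibitor Spink1 (0.989) and the transcription factor Maf (0.988). Reg3b ran most like Ubac2 (0.969) and the interferon-induced Oas3 (0.959). Reg3g had less alike neighbours, among them Oas1a (0.920), also interferon-induced, and Vps26c (0.885). Among the members themselves r was highest between Reg1 and Reg3a (0.951) and between Reg3a and Reg3b (0.890), was 0.558 between Reg3b and Reg3g, and was 0.144 between Reg3g and Reg4.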

How the data were processed

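Total RNA of 12 sorted crypt cell samples was sequenced single-end from stranded TruSeq libraries. Per the labels and the methods, the authors trimmed reads with Trimmomatic 0.39, aligned them with STAR 2.7.10a to mm39 and deposited raw counts per gene (STAR GeneCounts), which hold only reads placed once in the genome and in 1 gene. The strand setting of the counting was not stated.

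Groups follow the sample titles, since the labels' genotype field goes against them (all Paneth samples WT, all non-Paneth samples GRKO). Gene names came from GENCODE vM39 (54749 of 55414 genes). Levels are CPM by library totals, 11126297 to 15910292 counts. Differences were tested in R 4.3.3 with edgeR 4.0.16 (TMM, filterByExpr, robust glmQLFit, glmQLFTest) on all 12 libraries with 1 mean per group and a Benjamini-Hochberg threshold of 5% over 13057 genes. Tested on simulated data with 200 genes changed by 1.5 on the log2 scale, it recovered 76.5% for WT Paneth against non-Paneth cells. For the interaction it recovered 70.0%, and 7.27% and 6.67% of its calls in turn were false. Neither rate was tested at the breadth of change in the data, where 50.7% of genes were called between fractions of WT mice. Alternatives were DESeq2 1.42.0, RLE factors, library totals, other filters, fewer groups, a replicate block and libraries left out. Lists are described by counts and medians.

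Replicate numbers pair samples where labels say so or where each pair's correlation of deviations from group means exceeds 0.1. In WT mice Paneth and non-Paneth libraries of 1 number correlated at 0.349, 0.229 and 0.238. No label pairs them. Libraries numbered 2 of different genotypes, which cannot be pairs, correlated at 0.156 in Paneth and 0.166 in non-Paneth cells, so the limit alone does not establish a pair. Chi-square per degree of freedom between libraries of a group was 12.3 to 47.1, more than sampling noise, which does not tell separate mice from separate preparations of 1 mouse. Xist sets the mouse of WT number 2 apart from that of WT numbers 1 and 3, and tells nothing more on the other libraries. The 5 genes and all lists were chosen with earlier results of these data known. Named genes were the 7 Reg genes, Nr3c1, the 3 genes most correlated with each member (some are not reported here), and up to 4 list genes per list and comparison with the largest called change.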

Additional observations from a re-analysis of the deposited data

Results flagged for a closer look

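In 6 pathway genes named beside the Reg lectins, the GRKO over WT difference in Paneth cells differed from that in non-Paneth cells by edgeR's interaction test (12 libraries). On the log2 scale the interaction was 1.75 for Il22ra1 (adjusted p = 0.00737), 1.02 for Il10rb (adjusted p = 0.00187), 1.13 for Jak2 (adjusted p = 0.00338), 1.14 for Stat3 (adjusted p = 0.036), 1.41 for Ticam1 (adjusted p = 0.000593) and -0.93 for Tlr2 (adjusted p = 0.024). Of 10 genes of IL-22 and STAT3 signalling 5 were called, all positive, and of 11 of Toll-like receptor signalling 1 was positive and 1 negative, beside 11.5% of all genes positive and 7.27% negative. Il22ra1, Il10rb, Jak2 and Ticam1 passed in all 19 alternatives, with highest adjusted p of 0.0157, 0.0177, 0.0148 and 0.00592, while Stat3 passed in 12 and Tlr2 in 13. Enterocyte markers also differed between the genotypes in non-Paneth libraries, and their part in these values was not tested.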

How the results depend on the processing

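Over 495 recomputed log2 differences of the 5 genes, 442 kept their direction and their side of the threshold, 6 lost a call, 30 gained one and 17 changed sign. Reg4 between fractions was past the threshold in all 20 alternatives of each genotype (5.08 to 6.14 in WT, 5.15 to 6.60 in GRKO), and so were Reg1 and Reg3a in WT; those with the WT number 2 libraries or the canonical length changed were chosen after seeing the data. The changes of sign were in differences short of the threshold. For Reg3g between fractions of WT mice they were 0.19 once WT non-Paneth replicate 2 and 0.15 once WT Paneth replicate 1 was left out, in a range over single libraries left out of -1.38 to 0.19. For GRKO over WT Paneth cells, without WT Paneth replicate 2 or without WT number 2, they were 0.29 and 0.29 for Reg1, 1.74 and 1.73 for Reg3a, and 2.44 and 2.44 for Reg3b, and in single libraries left out 0.06 to 0.13 for Reg3a and -0.07 for Reg3g. The full ranges over single libraries left out were -2.19 to 0.29 for Reg1, -0.61 to 1.74 for Reg3a, -0.96 to 2.44 for Reg3b and -0.07 to 1.47 for Reg3g. The interaction of Reg1 was negative in 5 libraries left out (-0.28, -0.26, -0.13, -0.12 and -0.07), in a range of -0.28 to 2.19. Scaled by library totals, Paneth over non-Paneth differences in GRKO mice changed sign for Extl3 (-0.19), Il10rb (-0.42), Il22ra1 (-0.25) and Irak1 (-0.13); of 834 recomputed pathway values 742 were unchanged in direction and call.

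The count of the 5 genes called between fractions of GRKO mice was 5 with no filter and 5 on only the groups compared, where Reg3g was 1.10 (adjusted p = 0.0189). With no filter it was 2 between genotypes in Paneth cells, 5 in non-Paneth cells and 3 for the interaction; that fit gave 193000 degrees of freedom per gene, so that the genes' own spread had almost no weight. Leaving out 1 library gave 0 to 2 calls between genotypes in non-Paneth cells and 0 to 3 for the interaction, and leaving out WT number 2 gave 2 for the interaction. Of all genes, the fit without WT number 2 called 1682 for the interaction, against 2445 in the reported fit.

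Genes called between genotypes in Paneth cells, 420 in the reported fit, were 1465 with DESeq2, 2 by library totals, 1780 with no filter, 0 on only the groups compared, 977 with the number as a block, 1 without WT number 2 and 0 to 1619 with 1 library left out, so the 3.22% background of that comparison is itself loose; the cause was not tested. By library totals 10785 genes were called between fractions of GRKO mice, against 5116. With 1 library left out the interaction's count of 2445 genes lay between 1562 and 2610. With TMM-scaled library sizes the 5 genes summed to 6488 in place of 4826 CPM in GRKO Paneth and 2127 in place of 3145 CPM in GRKO non-Paneth cells.

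With the replicate block, 1 gene was called for the interaction, Reg3g at 1.65 (adjusted p = 0.0131). In GRKO mice, where correlations of same-numbered libraries were 0.013, 0.262 and 0.465 and the numbers were not shown to pair them, the block gave 0.97 for Reg3g (adjusted p = 0.0153) and -2.81 for Reg3a (adjusted p = 0.0511). Between genotypes the numbers are names only (correlations -0.098 to 0.166); the block turned Reg3b in Paneth cells to 0.61 and changed no other call.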
